A study of Mus musculus with 15 samples.

Results

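The Hox genes of the mouse are 39 homeobox genes in 4 clusters, and all 39 were found among the 36528 genes of the deposited tables by their symbols (Hoxa, Hoxb, Hoxc or Hoxd followed by a number). Their RNA was measured in fetal intestine at E16.5 (days of embryonic age), in 15 libraries of 3 genotypes with 5 libraries each. Every embryo genotype lacked Mlkl, the kinase-like protein that carries out necroptosis, and the genotypes differed in Casp8, the initiator protease of death receptor apoptosis. Wildtype libraries carried an intact Casp8, knockout libraries had no Casp8, and C362A libraries carried a knockin allele that replaces the catalytic cysteine. The labels give the C362A libraries the diagnosis inflammation and all others the diagnosis normal. They name the tissue as small intestine in one field and as intestine in another. Nothing in the labels says whether the libraries of a genotype came from separate embryos or litters, and neither sex nor library batch is given, so p-values measure only the spread between these samples.

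Hox proteins are transcription factors that give cells their position along the head-to-tail axis. Genes at the 3′ end of a cluster (low paralog group numbers) are switched on early and far forward, and genes at the 5′ end (high numbers) late and near the tail. In the developing gut most Hox transcripts lie in the mesoderm around the epithelium, and the genes of group 13 mark the hindgut, which forms the colon and rectum.

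Library totals ran from 31896399 to 38532127 uniquely aligned reads. The knockout label held at the RNA level: Casp8 lay between 12.2 and 16.54 CPM (read counts normalised to library size with TMM factors) in knockout libraries, 62.3 and 77.5 CPM in wildtype libraries and 64.4 and 72.8 CPM in C362A libraries. The C362A range lay inside the wildtype range, so the Casp8 level cannot tell these labels apart. Mlkl reached at most 0.839 CPM, with no library of intact Mlkl to compare. Intestinal markers were abundant: Cdx2, a regulator of intestinal identity, had 209 to 313 CPM, and Hnf4a, a regulator of absorptive cells, had at least 533 CPM. Hox reads summed to 283.5 to 426.5 CPM without TMM factors. These are bulk samples, in which fewer cells of a type and less RNA per cell cannot be told apart.

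In each cluster the highest level belonged to a gene of groups 3 to 8. Levels of different genes are compared as deposited RPKM, reads per kilobase of gene model scaled to library size. Of the 39 Hox genes, 28 had a mean of at least 1 RPKM: 9 of 11 in the Hoxa cluster on chromosome 6, 9 of 10 in the Hoxb cluster on chromosome 11, 4 of 9 in the Hoxc cluster on chromosome 15 and 6 of 9 in the Hoxd cluster on chromosome 2. Summed over members, the mean level was 58.5 RPKM for Hoxb, 50.6 RPKM for Hoxa, 16.49 RPKM for Hoxd and 12.1 RPKM for Hoxc. Group 5 alone held 46.8 ± 6.28 RPKM (SD, n = 15), followed by group 4 with 19.0 ± 2.32 RPKM and group 3 with 13.7 ± 1.65 RPKM.

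**Figure D1:**
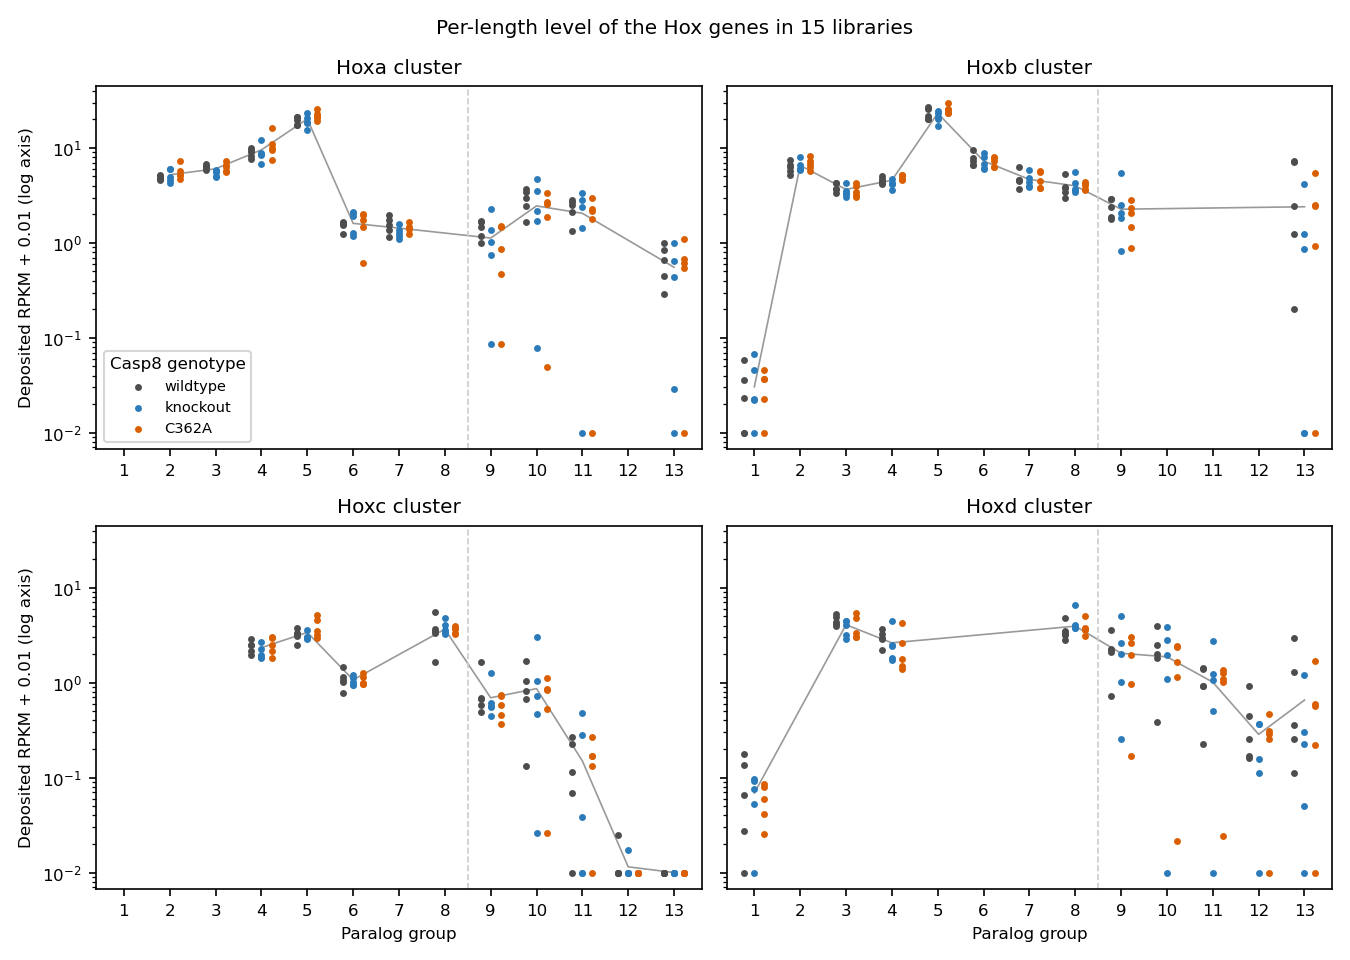
Deposited RPKM plus 0.01 (log axis) of Hox genes against paralog group, with 1 panel per cluster. Points are the 15 libraries coloured by Casp8 genotype, the grey line joins the means, and the dashed line separates groups 1 to 8 from groups 9 to 13. Hoxa5 and Hoxb5 stand highest with means of 20.2 and 23.2 RPKM, and points to the right of the dashed line spread over a far wider range than those to its left.

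Hoxb5 (chr11:96303512-96306121), which takes part in patterning the gut wall and its enteric nerves, had the highest mean at 23.2 ± 3.25 RPKM (SD, n = 15). Its values were 26.7, 20.3, 25.5, 19.99 and 21.9 RPKM in wildtype, 23.5, 21.3, 20.2, 24.6 and 16.9 in knockout and 30.1, 24.8, 25.8, 23.4 and 23.1 in C362A libraries. The 3 genotypes overlapped, with C362A 1 highest and knockout 5 lowest. Hoxa5 (chr6:52201754-52204587), known for its role in the mesenchyme of lung, gut and stomach, came next with 20.2 ± 2.57 RPKM. It gave 21.0, 17.4, 20.9, 17.3 and 19.8 RPKM in wildtype, 20.6, 18.3, 18.6, 23.5 and 15.5 in knockout and 25.4, 22.5, 21.7, 20.7 and 19.3 in C362A libraries. The same libraries were at the ends as for Hoxb5. The ranges of Hoxa5 and Hoxb5 overlapped, but Hoxb5 was the higher of them in every library, and the difference was not tested.

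A step down followed to Hoxa4 with 9.54 ± 2.26 RPKM and Hoxb6 with 7.28 ± 1.04 RPKM (SD, n = 15). Hoxa4 reached 16.0 RPKM in C362A 1 and 12.1 in knockout 4 against 6.76 to 10.9 in the other libraries. Hoxb6 stayed between 5.996 and 9.52 RPKM, and its range overlapped that of Hoxa4. In the Hoxc cluster the leading genes were Hoxc8 with 3.65 ± 0.829 RPKM and Hoxc5 with 3.38 ± 0.693 RPKM, and in the Hoxd cluster Hoxd3 with 4.06 ± 0.831 RPKM and Hoxd8 with 3.93 ± 0.932 RPKM. Hoxc8 was lowest in wildtype 4 at 1.65 RPKM and highest in wildtype 1 at 5.51 RPKM, both of the same genotype. Within each of these pairs the order changed between libraries, so neither leading gene of a cluster stood clear of the other. Hoxc6 ranked low at 1.06 RPKM, but its level rests on a gene model length of 10835 bases in the deposited values, the longest among the members.

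The other genes of groups 1 to 8 had intermediate levels. In group 2, Hoxb2 had 6.53 ± 0.885 RPKM (SD, n = 15) and Hoxa2 5.20 ± 0.747 RPKM, both known from the hindbrain and branchial arches. In group 3, Hoxa3 had 6.02 ± 0.617 RPKM and Hoxb3 3.64 ± 0.468 RPKM, and in group 4, Hoxb4 had 4.56 ± 0.464 RPKM, Hoxd4 2.62 ± 0.960 RPKM and Hoxc4 2.33 ± 0.423 RPKM. Hoxd4 was the least even of them, from 1.38 RPKM in C362A 1 to 4.43 in knockout 5. In groups 6 to 8 came Hoxb7 at 4.64 ± 0.821 RPKM, Hoxb8 at 3.98 ± 0.682 RPKM, Hoxa6 at 1.59 ± 0.409 RPKM and Hoxa7 at 1.42 ± 0.233 RPKM. Hoxa6 was lowest in C362A 1 with 0.611 RPKM, and its next lowest value was 1.17 RPKM in knockout 2.

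Of the genes toward the ends of the clusters, 5 were near 0. Hoxb1 and Hoxd1, whose best-known domains are in the hindbrain, had at most 5 and 11 reads in a library. Hoxc11 had at most 17 reads, Hoxc12 had at most 2 and Hoxc13 had none in any library. These 5 genes did not pass the filter on low counts, which left 34 Hox genes for testing. Reads of 10 members whose gene spans overlap another member could not be assigned with certainty, because the kit does not mark strand and no source used here says how overlaps were counted. They are Hoxa3 with Hoxa4, Hoxa5 and Hoxa6, the pair Hoxb3 and Hoxb4, the pair Hoxd3 and Hoxd4, and the pair Hoxd10 and Hoxd11.

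The 5′ genes of the clusters differed between libraries far more than the rest, in a spread pooled over the 3 genotypes. Within wildtype alone, Hoxa9 and Hoxb9 were about as even as the less even genes of groups 1 to 8. Hoxa9 had 4.61 ± 1.01 CPM and Hoxb9 6.51 ± 1.51 CPM there, against 11.2 ± 2.49 CPM for Hoxb8 (SD, n = 5). Most other genes of groups 1 to 8 were tighter in wildtype, such as Hoxa2 with 8.83 ± 0.416 CPM and Hoxb4 with 13.1 ± 1.17 CPM. Hoxc8 was wider, with 8.60 ± 3.36 CPM. The SD within genotypes on the log2 CPM scale had a median of 1.87 for the 13 tested genes of groups 9 to 13 (range 0.56 to 2.64) and of 0.25 for the 21 tested genes of groups 1 to 8 (0.11 to 0.53). Over all 18370 genes tested the median was 0.20 and the 90th percentile 0.54. All 13 tested genes of groups 9 to 13 lay above that percentile and 0 of the 21 others did. The 3 largest SDs belonged to Hoxb13 with 2.64, Hoxd10 with 2.46 and Hoxa11 with 2.44.

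**Figure D2:**
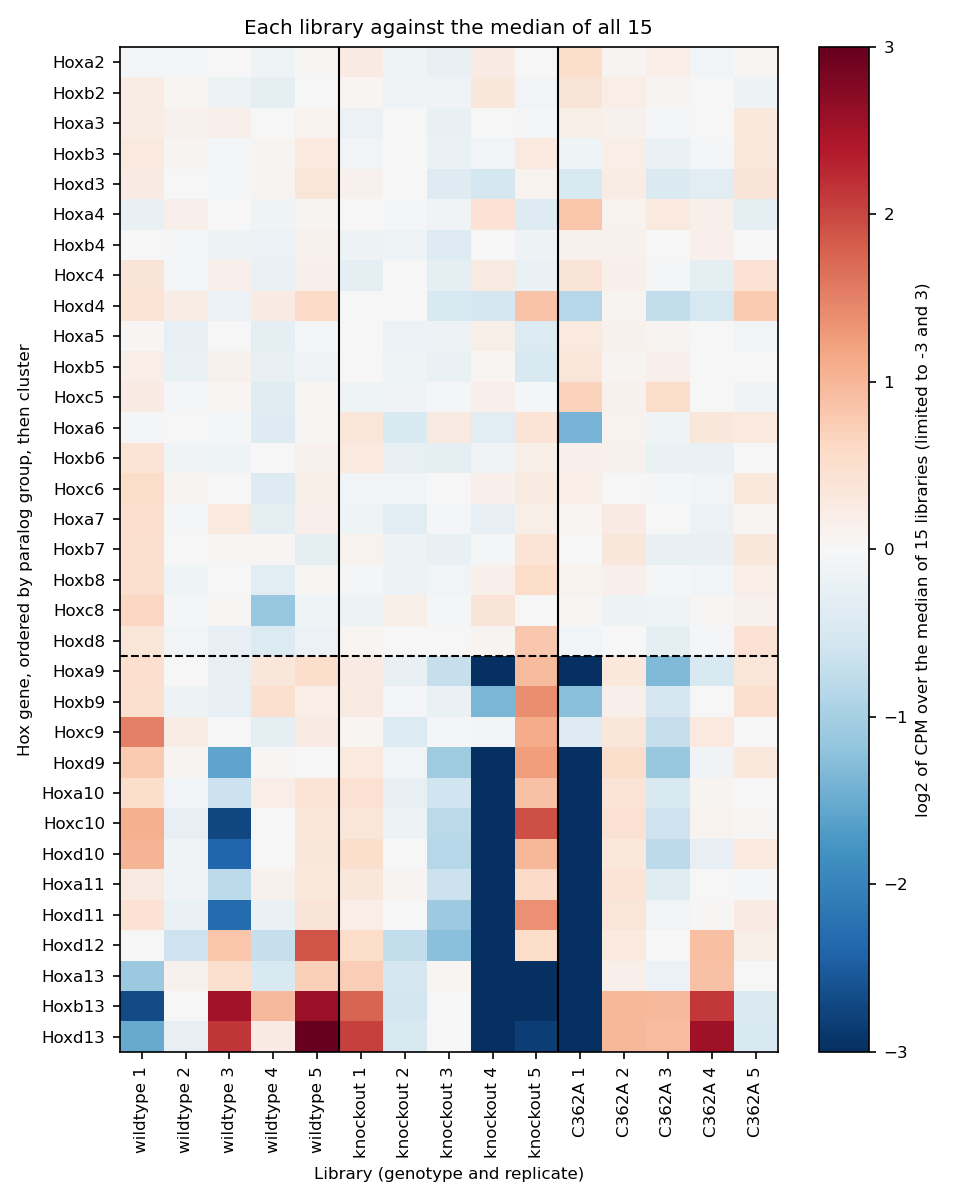
Log2 of TMM-scaled CPM over the median of the 15 libraries for Hox genes with a median of at least 10 reads (colour, limited to -3 and 3), in rows ordered by paralog group and columns ordered by genotype. Solid lines separate genotypes and the dashed line separates groups 1 to 8 from groups 9 to 13. Rows above the dashed line are pale, and below it C362A 1 and knockout 4 are dark blue down to 0 reads.

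Much of this spread came from C362A 1 and knockout 4, of different genotypes, in which the 5′ Hox genes were at or near 0. Both had 0 reads of Hoxa13, Hoxb13 and Hoxd13, where 3 reads, the limit that a count of 0 allows for counting error, would be 0.0935 CPM in C362A 1 and 0.0887 CPM in knockout 4. Both had 8 reads over all genes of groups 10 to 12, against 394 to 2036 reads in the other libraries. Groups 9 to 13 made up 1.13% of the summed Hox RPKM in C362A 1 and 1.37% in knockout 4, and between 9.94% and 22.3% elsewhere. Of the 13 genes of these groups with a median of at least 10 reads, 12 were below a ratio of 0.5 to the 15-library median in each of these libraries. The exception was Hoxc9, at 25 and 31 reads against a median of 37. Without C362A 1 and knockout 4 the median SD of groups 9 to 13 was 0.85, and 10 of 13 genes still lay above the 90th percentile of all genes, then at 0.53.

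The step began in group 9 and was complete in group 10. Hoxa9 had 0.249 CPM in both C362A 1 and knockout 4, and 1.53 to 7.47 CPM elsewhere. Hoxd9 had 0.342 and 0.530 CPM in them and 1.52 to 10.9 CPM elsewhere. Hoxb9, by contrast, kept 2.40 and 2.21 CPM, against 4.06 to 15.02 CPM in the others. Group 9 genes give position in the thoracic and lumbar trunk, and their remaining reads in these libraries came mainly from Hoxb9, with 77 and 71 reads. Hoxa10, which acts in lumbar vertebrae and the uterus, had 4 and 7 reads there and 178 to 579 reads elsewhere. Hoxd11, a gene of limb and kidney, had 2 and 0 reads there, 31 reads in wildtype 3 and 81 to 454 reads in the rest.

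Hoxa11 (chr6:52242105-52245810), required for limb and urogenital development, shows the step most plainly. It had 220, 179, 104, 178 and 247 reads in wildtype, 238, 206, 127, 0 and 304 in knockout and 0, 260, 137, 183 and 170 in C362A libraries. Hoxd10 (chr2:74684273-74695106), which acts in limb and lumbar spinal cord, had 379, 184, 35, 169 and 260 reads in wildtype, 281, 200, 113, 0 and 416 in knockout and 1, 250, 105, 158 and 221 in C362A libraries. Apart from C362A 1 and knockout 4, its lowest value was wildtype 3, and the genotypes overlapped. Knockout 5 had the most reads, and scaled to library size wildtype 1 and knockout 5 were close at 10.96 and 10.83 CPM. Hoxc10 (chr15:102966796-102971898), the most 5′ Hoxc gene that passed the filter, ran from 0.0311 CPM in C362A 1 to 5.96 CPM in knockout 5, with 0.238 CPM in wildtype 3.

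The genes of group 13 had an order of their own among the libraries. Hoxb13 (chr11:96194316-96196610), a marker of hindgut and prostate, had 9, 60, 324, 101 and 372 reads in wildtype, 200, 42, 63, 0 and 0 in knockout and 0, 124, 109, 251 and 41 in C362A libraries. Hoxd13 (chr2:74668225-74671603), which acts in digits and in the smooth muscle of the anal sphincter, had 9, 23, 110, 27 and 279 reads in wildtype, 109, 20, 28, 0 and 4 in knockout and 0, 55, 47, 149 and 18 in C362A libraries. Hoxa13 (chr6:52258853-52260880), required for hindgut and genital tubercle, had 13, 32, 38, 18 and 50 reads in wildtype, 48, 21, 32, 0 and 1 in knockout and 0, 33, 24, 51 and 27 in C362A libraries. For all 3 genes the highest reads lay among wildtype 3, wildtype 5, knockout 1 and C362A 4, and every genotype held both low and high libraries. Across the 15 libraries Hoxa13 and Hoxd13, which sit on different chromosomes, were correlated on the scale of TMM-scaled CPM without a log. Pearson r was 0.78 (permutation p = 0.00011, adjusted over 3 relations 0.00033) and Spearman rho was 0.91 (adjusted permutation p = 3e-05). For rho the unadjusted permutation p was 1e-05, the smallest that 100000 permutations can give. Without C362A 1 and knockout 4, the libraries farthest from the Hoxa13 median, r was 0.78. The libraries farthest from the Hoxd13 median, wildtype 5 at 7.43 CPM and C362A 4 at 4.31 CPM, were kept there. Within the 2 runs of consecutive sample numbers in the labels r was 0.82 over 6 libraries and 0.77 over 9.

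**Figure D3:**
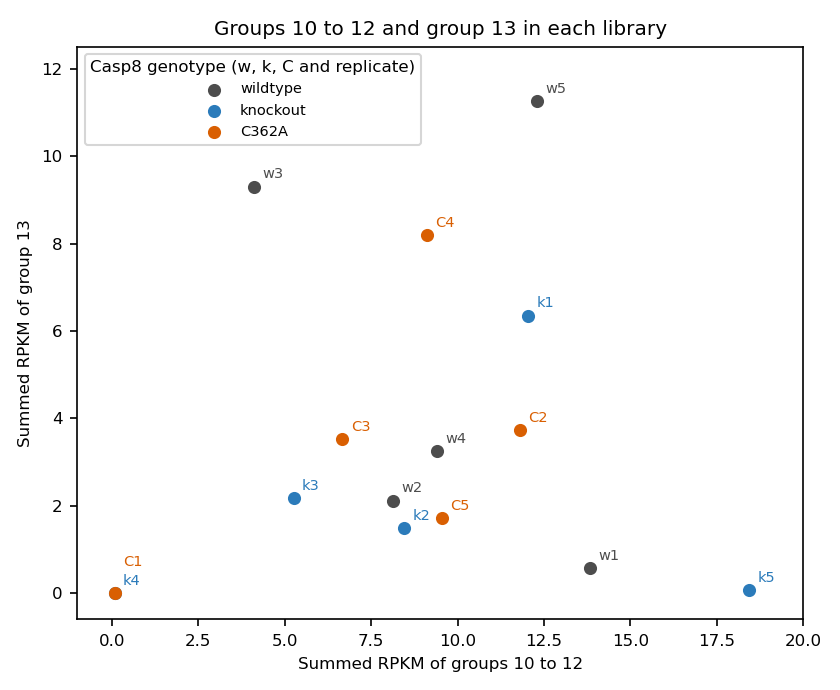
Summed RPKM of group 13 against summed RPKM of groups 10 to 12 in each library, coloured by Casp8 genotype and labelled by its first letter and replicate (w wildtype, k knockout, C C362A). C362A 1 and knockout 4 coincide at the origin, knockout 5 lies at the far right with 18.4 RPKM for groups 10 to 12 and almost no group 13, and wildtype 3 lies at the upper left.

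Groups 10 to 12 and group 13 parted in some libraries, and the relation of their sums was not tested. C362A 1 and knockout 4 were lowest in both. Knockout 5 had the highest sum for groups 10 to 12, 18.4 RPKM, but only 0.0598 RPKM for group 13. Wildtype 1 was similar, with 13.8 RPKM for groups 10 to 12 and 0.573 RPKM for group 13. Wildtype 3 was the reverse, with 4.11 RPKM for groups 10 to 12 and 9.30 RPKM for group 13, and wildtype 5 was high in both with 12.3 and 11.3 RPKM. Hoxd12 (0.276 ± 0.225 RPKM, SD, n = 15), between the Hoxd10 and Hoxd11 genes and Hoxd13 on the chromosome, was highest in wildtype 5 at 2.37 CPM and at 1.13 CPM in wildtype 3, where Hoxd11 had 0.922 CPM.

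**Figure D4:**
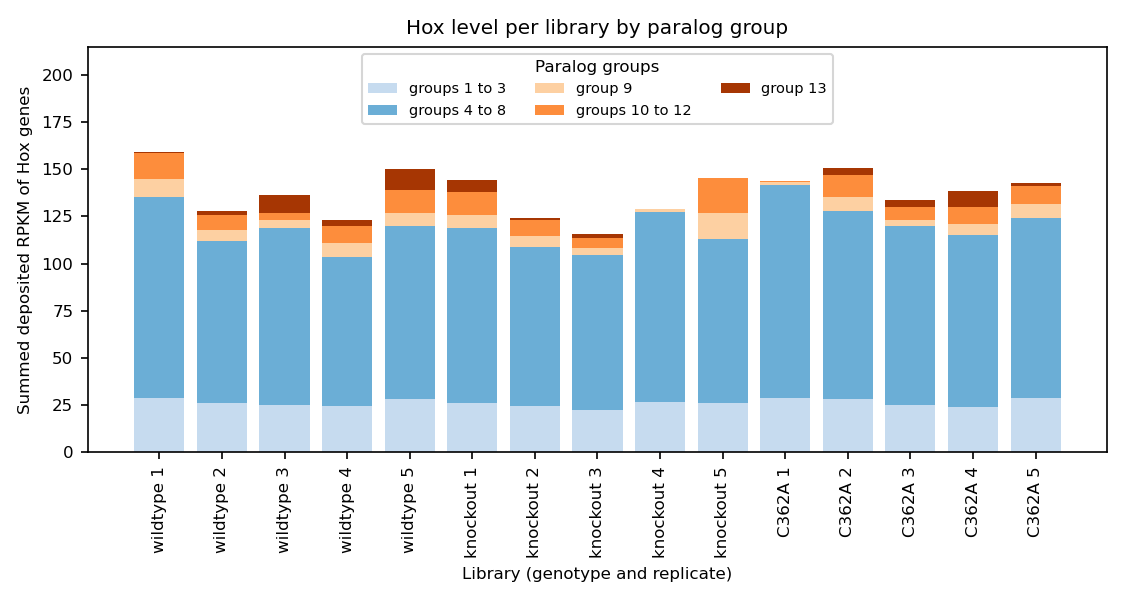
Summed deposited RPKM of the Hox genes in each library, stacked by paralog group. Groups 1 to 8 take a similar height in all libraries, and the upper, orange to brown segments for groups 9 to 13 nearly vanish in C362A 1 and knockout 4.

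Markers of other tissue moved with some of these libraries. In knockout 5 the list of 10 kidney and genital tract markers summed to 54.8 CPM and none of the 10 was at 0. The sums were 3.73 to 4.77 CPM in wildtype, 3.42 to 6.10 CPM in C362A and 1.81 to 3.89 CPM in the other knockout libraries, where 1 to 4 members were at 0. Pax2, a regulator of the kidney lineage, had 15.05 CPM in knockout 5 and at most 0.107 CPM in any other library, and the kidney protein gene Umod had 2.03 CPM in it and 0 in every other library. Hox genes of groups 9 to 11 are also transcribed in the fetal kidney. The part of these cells in the high 5′ Hox reads of knockout 5 was not tested. Leaving out knockout 5 as well, the median SD of groups 9 to 13 was 0.78 and that of group 13 alone 1.52.

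The 9 genes found of a list of 10 colon and caecum markers summed to 956 CPM in C362A 1, its lowest, and to 1423 CPM in knockout 4, within the 1046 to 1734 CPM of the others. C362A 4, high for group 13, had 1046 CPM. The sum also followed the list of 16 epithelium markers at its ends. C362A 1 was lowest for both lists, with 10751 CPM for epithelium, and wildtype 4 was highest for both, with 31652 CPM for epithelium. A list of 8 proximal small intestine markers was highest in knockout 4 at 1038 CPM. Its sum was 832 CPM in C362A 1, within the 693 to 970 CPM of the others. The part of colon content in the group 13 reads was not tested. In C362A 4, among the highest libraries for group 13, the list of 13 squamous epithelium markers summed to 266.6 CPM with none at 0, against 16.3 to 26.7 CPM in the other libraries. The keratin genes Krt15 and Krt4 had 82.0 and 79.3 CPM in it and at most 4.69 and 0.811 CPM elsewhere. The part of these cells in its Hox reads was not tested. Hoxa11os, a transcript opposite Hoxa11, was at 0 in C362A 1 and at 0.0623 CPM in knockout 4, against 3.61 to 6.45 CPM in the others.

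The sequences just upstream of steady and of variable members are shown to set their composition side by side. They are the 250 bases before the start of a RefSeq transcript on GRCm38.p6, 5′ to 3′ on the strand of the gene, and none of the windows overlaps a GENCODE exon. Hoxa5 lies at chr6:52204588-52204837 on the minus strand, inside the span of the overlapping Hoxa3 gene. Hoxb8, a gene of the trunk, lies at chr11:96281655-96281904 on the plus strand and Hoxd10 at chr2:74691641-74691890 on the plus strand, both inside the gene's own span, before the start of one of its transcripts. Hoxa13 lies at chr6:52260881-52261130 on the minus strand and Hoxd13 at chr2:74667975-74668224 on the plus strand. Capitals mark matches to TTTATNG, the form bound by Cdx and 5′ Hox proteins, to TGATTNAT, a joint Hox and Pbx form, and to TATAAA, the TATA box, on either strand.
Hoxa5: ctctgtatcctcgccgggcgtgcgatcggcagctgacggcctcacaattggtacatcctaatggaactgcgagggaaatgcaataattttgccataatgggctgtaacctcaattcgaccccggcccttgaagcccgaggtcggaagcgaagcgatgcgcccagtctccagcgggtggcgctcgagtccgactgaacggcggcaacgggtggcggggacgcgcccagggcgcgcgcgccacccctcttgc
Hoxb8: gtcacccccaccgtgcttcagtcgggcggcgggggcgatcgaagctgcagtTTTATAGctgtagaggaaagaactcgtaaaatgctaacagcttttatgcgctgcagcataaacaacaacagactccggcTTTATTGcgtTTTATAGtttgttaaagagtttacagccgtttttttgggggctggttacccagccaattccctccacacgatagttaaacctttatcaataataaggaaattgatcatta
Hoxd10: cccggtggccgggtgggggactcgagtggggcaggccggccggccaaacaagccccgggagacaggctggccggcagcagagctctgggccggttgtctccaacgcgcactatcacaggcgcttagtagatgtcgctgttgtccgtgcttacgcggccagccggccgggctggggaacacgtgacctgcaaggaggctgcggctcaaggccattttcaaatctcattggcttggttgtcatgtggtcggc
Hoxa13: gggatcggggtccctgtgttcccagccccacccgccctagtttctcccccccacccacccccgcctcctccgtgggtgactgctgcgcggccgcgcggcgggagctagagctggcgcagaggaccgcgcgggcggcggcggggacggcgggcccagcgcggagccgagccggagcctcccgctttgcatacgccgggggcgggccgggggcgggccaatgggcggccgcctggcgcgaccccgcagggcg
Hoxd13: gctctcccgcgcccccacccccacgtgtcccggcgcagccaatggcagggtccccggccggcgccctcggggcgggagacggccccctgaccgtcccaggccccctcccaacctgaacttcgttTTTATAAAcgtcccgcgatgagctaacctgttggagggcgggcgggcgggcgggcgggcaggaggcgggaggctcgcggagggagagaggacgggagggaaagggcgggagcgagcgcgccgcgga
The windows of the group 13 genes were the richest in G and C, with 80.0% for Hoxa13 and 74.4% for Hoxd13, against 65.6% for Hoxd10, 63.6% for Hoxa5, 44.4% for Hoxb8 and a median of 52.4% over 32851 promoter windows. Hoxa13, Hoxd10 and Hoxa5 held no match to any of the 3 motifs. Hoxb8 held 3 matches to TTTATNG, of which 2 overlap a TATAAA match on the other strand, and Hoxd13 held 2 overlapping TATAAA matches on opposite strands. Among the 24 windows of the 22 Hox genes with a promoter sequence, 2 held TTTATNG, 2 held TGATTNAT and 4 held TATAAA, and the shares over all promoters were 9.81%, 2.82% and 12.4%. A match describes letters only.

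The first genotype comparison asked whether Hox levels differed between embryos with catalytically inactive Casp8 and wildtype Casp8. Under the quasi-likelihood test of edgeR (adjusted by Benjamini-Hochberg over all genes), 0 of 34 Hox genes rose and 0 fell, where 0.0817% of all genes tested rose and 0% fell. At an unadjusted p under 0.05 there were also 0 Hox genes, against 8.08% of all genes higher and 7.80% lower. DESeq2 and limma-voom called 0 as well. Leaving out C362A 5 raised the calls over all genes from 15 higher and 0 lower to 794 higher (4.29%) and 1013 lower (5.47%), still with 0 Hox genes. An unadjusted p under 0.05 was then reached by 3 Hox genes upward and 2 downward, against 14.1% of all genes higher and 16.3% lower. The median log2 fold change was -0.06 over the 34 Hox genes and 0.01 over all genes.

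The smallest p-values belonged to 3 genes of the steady range. Hoxc5, a paralog of Hoxa5 and Hoxb5, had 10.6, 8.67, 9.31, 6.86 and 9.09 CPM in wildtype and 14.4, 9.74, 12.9, 8.89 and 8.24 CPM in C362A libraries, with a log2 fold change of 0.28 (SE 0.15, edgeR adjusted p = 0.345). Only C362A 1 and C362A 3 lay above the wildtype range. Hoxa5 differed by 0.18 on the log2 scale (SE 0.10, edgeR adjusted p = 0.361), from 37.2 ± 3.56 to 42.3 ± 4.27 CPM (SD, n = 5 each, edgeR). Hoxa2, which patterns the second branchial arch, differed by 0.21 (SE 0.12, edgeR adjusted p = 0.370), from 8.83 ± 0.416 to 10.2 ± 1.70 CPM. Both sets of values overlapped between the genotypes. Group 13 had lower fitted values, such as -0.71 (SE 1.17) for Hoxb13 and -0.69 (SE 1.11) for Hoxd13, with standard errors larger than the difference. Without C362A 1 and knockout 4 these were -0.40 (SE 1.02) and -0.38 (SE 0.99).

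The second comparison asked what loss of the whole Casp8 protein did. Again 0 of 34 Hox genes rose and 0 fell by edgeR, where 0.0272% of all genes rose and 0.0109% fell, and DESeq2 and limma-voom called 0. At an unadjusted p under 0.05, 1 Hox gene was lower, Hoxa3, against 1.23% of all genes lower and 1.20% higher. Hoxa3 (required for thymus and parathyroid) had 17.7, 16.6, 16.9, 15.10 and 16.3 CPM in wildtype and 13.3, 14.96, 12.99, 15.06 and 14.5 CPM in knockout libraries. The log2 fold change was -0.22 (SE 0.08, edgeR adjusted p = 0.9999), and the groups did not overlap, though wildtype 4 and knockout 4 differed by little. Hoxa7 differed by -0.25 (SE 0.14, edgeR adjusted p = 0.9999), from 8.98 ± 1.81 to 7.53 ± 1.08 CPM, and Hoxd8 by 0.32 (SE 0.18, edgeR adjusted p = 0.9999), from 9.59 ± 2.06 to 11.97 ± 3.28 CPM (SD, n = 5, edgeR). Hoxd8 in knockout 5, the library with kidney markers, was 17.8 CPM, and the other knockout libraries lay between 10.3 and 10.8 CPM, inside the wildtype range of 7.65 to 13.04 CPM.

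The largest fitted log2 differences between knockout and wildtype were -1.55 (SE 1.21) for Hoxb13, -1.49 (SE 1.15) for Hoxd13 and -0.97 (SE 0.78) for Hoxd12, and Hoxa13 had -0.62 (SE 0.84). None passed the test (edgeR adjusted p = 0.9999 each). Leaving out C362A 1, knockout 4 and knockout 5 moved Hoxb13 to -0.83 (SE 0.95), Hoxd13 to -0.80 (SE 1.04), Hoxd12 to -0.93 (SE 0.60) and Hoxa13 to 0.08 (SE 0.40). The values of Hoxb13 without these libraries were 5.62, 1.14 and 1.67 CPM in knockout and 0.260 to 9.91 CPM in wildtype.

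The third comparison set the inactive protein against no protein, with no library in common but with the wildtype libraries in the same estimate of spread. By edgeR 0 of 34 Hox genes rose and 0 fell, where 0.0109% of all genes rose and 0% fell, and DESeq2 and limma-voom called 0. At an unadjusted p under 0.05, 4 Hox genes were higher in C362A and 0 lower, against 6.49% of all genes higher and 7.41% lower. They were Hoxb4, Hoxa3, Hoxb5 and Hoxc5, of groups 3 to 5. Without C362A 5 the calls over all genes went from 2 higher and 0 lower to 329 higher (1.78%) and 476 lower (2.57%), and 0 Hox genes were called. An unadjusted p under 0.05 was then reached by 5 Hox genes, all upward, against 12.8% of all genes higher and 14.8% lower. Hoxb4, a regulator of blood stem cells, had 12.1, 12.4, 10.4, 13.7 and 12.3 CPM in knockout and 14.8, 14.8, 13.55, 15.1 and 13.5 CPM in C362A libraries, a log2 fold change of 0.24 (SE 0.09, edgeR adjusted p = 0.317). Knockout 4 overlapped the C362A range and the other knockout libraries lay below it. Hoxa3 differed by 0.22 (SE 0.08, edgeR adjusted p = 0.317), with 14.7 to 18.9 CPM in C362A libraries, and Hoxb5 by 0.26 (SE 0.11, edgeR adjusted p = 0.324), from 41.5 ± 5.68 to 49.5 ± 5.28 CPM. Hoxc5 differed by 0.32 (SE 0.15, edgeR adjusted p = 0.349). Foxf1, a gene of the gut mesenchyme, differed in the same direction by 0.27 (SE 0.08, edgeR adjusted p = 0.317), and the mesenchyme list of 14 genes summed to 6165 to 8698 CPM in C362A and 5641 to 8505 CPM in knockout libraries. The epithelium list of 16 genes summed to 10751 to 18153 CPM in C362A and 18289 to 21218 CPM in knockout libraries, with no overlap. With the epithelium level as a covariate, an unadjusted p under 0.05 was reached by 0 Hox genes upward and 1 downward, against 2.16% of all genes higher and 1.87% lower. Because the epithelium sums separate these genotypes, this fit cannot tell genotype and epithelium content apart. With the mesenchyme level as a covariate, 2 were higher and 1 lower, against 2.97% and 2.95% of all genes.

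**Figure D5:**
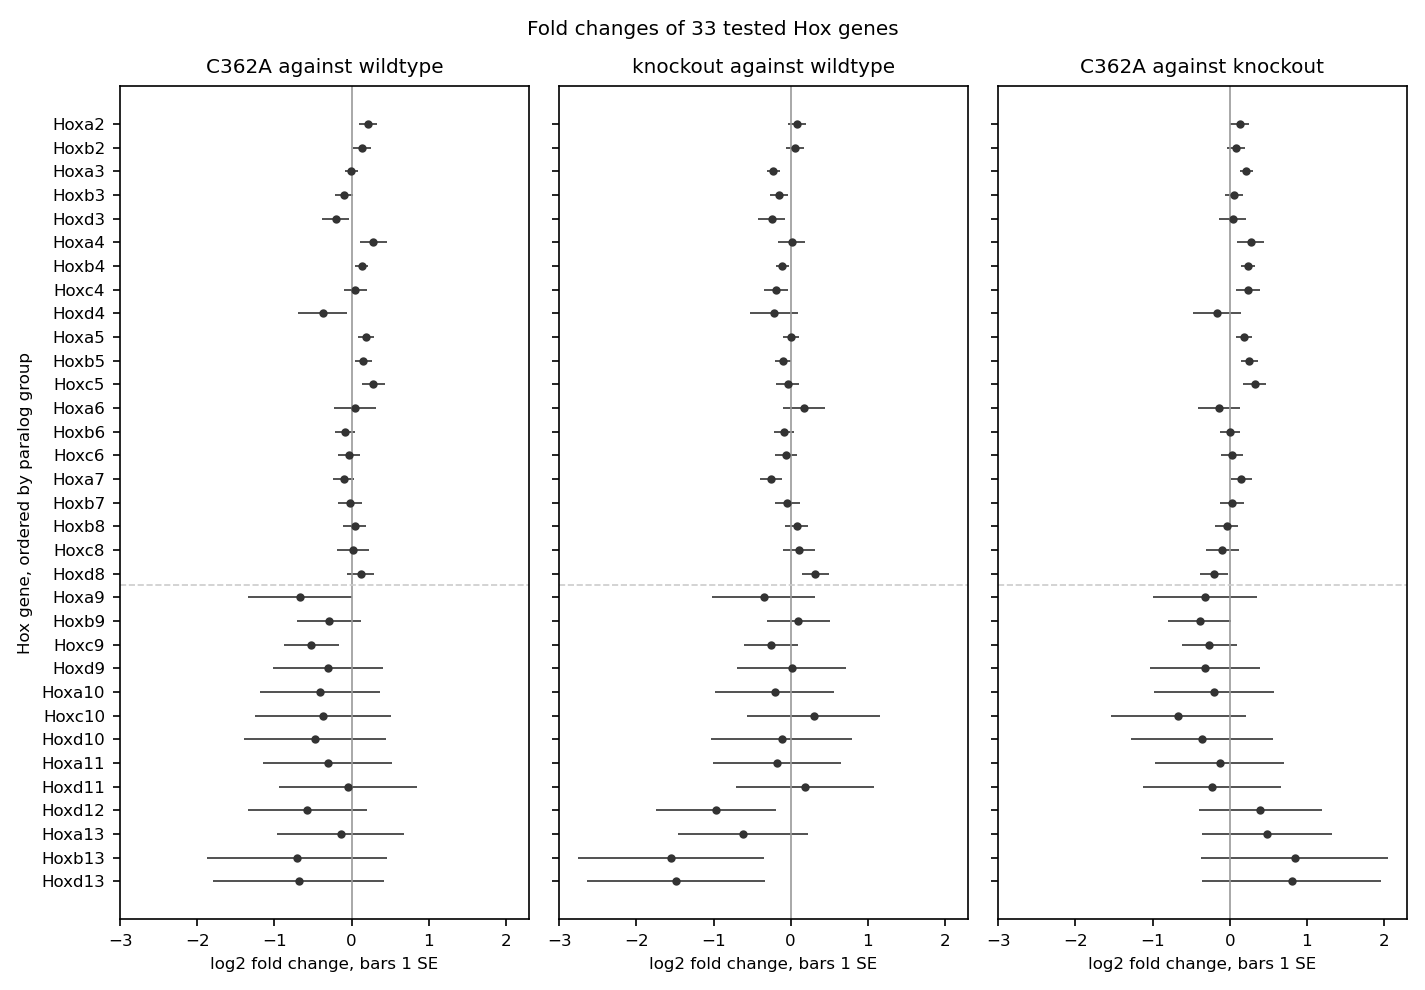
Log2 fold change (edgeR, bars 1 SE) of 33 of the 34 tested Hox genes in the 3 genotype comparisons, ordered by paralog group with the dashed line below group 8. Genes above the line lie near 0 with mostly short bars. The bars of groups 9 to 13 are longer, several times so for most genes, and cross or approach 0 in all panels. The shortest of them, for Hoxc9 (SE 0.35 in C362A against wildtype), is close to that of Hoxd4 in group 4 (SE 0.31).

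The 3 comparisons share libraries and are not independent. Genes that act with Hox proteins or on their clusters did not pass the test either. Of the 9 Hox cofactors (Pbx, Meis and Pknox genes, all tested), 14 tested of 18 ParaHox and gut axis regulators, 20 Polycomb and Trithorax regulators, 14 tested of 15 retinoic acid pathway genes and 11 tested of 20 noncoding and neighbour genes of the clusters, 0 were called in any comparison by edgeR. At an unadjusted p under 0.05 in C362A against wildtype, 2 cofactors were higher and 1 lower, and 4 ParaHox and gut axis regulators were higher and 1 lower. For Polycomb and Trithorax genes 3 were higher and 1 lower, where the shares over all genes were 8.08% higher and 7.80% lower. In C362A against knockout, 4 cofactors were higher and 0 lower, against 6.49% of all genes higher and 7.41% lower, and the median log2 fold change of the cofactors was 0.12.

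Pbx3, which binds DNA together with Hox proteins, had the smallest p in C362A against wildtype, with 32.9, 32.1, 31.1, 24.2 and 29.2 CPM in wildtype and 40.7, 35.5, 38.2, 40.6 and 32.6 CPM in C362A libraries. The log2 fold change was 0.33 (SE 0.09, edgeR adjusted p = 0.285). Only C362A 5 fell inside the wildtype range. Foxf1 followed with 0.25 (SE 0.08, edgeR adjusted p = 0.285). In knockout against wildtype the smallest p of the cofactor, gut axis and chromatin lists belonged to the Polycomb gene Cbx8 with a log2 fold change of -0.27 (SE 0.12, edgeR adjusted p = 0.9999). In C362A against knockout the smallest p-values belonged to Foxf1, given above, and to Pbx3 with 0.25 (SE 0.09, edgeR adjusted p = 0.317).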

How the data were processed

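PolyA RNA of 15 libraries (0.5 ug RNA each) was sequenced as single reads of 50 bp with a kit that does not mark strand, per the labels' protocols. Reads were aligned with GSNAP to GRCm38, per the submitters' processing notes. No source used here gives its version, settings or gene annotation. Per the file headers, the deposited counts are reads aligned uniquely within gene models, and the authors' RPKM include a size factor. Checked over 14076 genes, each RPKM was its count times a library factor over a gene length (largest log2 residual 9.8e-15). Replicates differed by more than sampling noise in all pairs.

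Entrez IDs were named from RefSeq (GRCm38.p6). Counts were fitted with edgeR 4.0.16 (R 4.3.3): TMM scaling, a filter at 10 reads (18370 genes kept), the quasi-likelihood test over all 15 libraries with a mean per genotype, Benjamini-Hochberg adjustment over all genes, and a call at 0.05. Tests were run on simulated data first. Log2 CPM used a prior count of 2. Correlations used 100000 permutations, two-sided, and 1 tested Hox gene and some other computed results are not reported here. Genes given with values were the 2 highest by RPKM and the most 5′ tested member of each cluster, the 3 smallest p-values per comparison and the 3 largest spreads. Other genes were named after seeing their values. DESeq2 1.42.0, limma 3.58.1, other scalings, filters, covariates and left-out libraries were alternatives. Members and lists were chosen with earlier results of these data known.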

Additional observations from a re-analysis of the deposited data

Results flagged for a closer look

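Within each genotype, 99 sets of 5 values (33 of the 34 tested Hox genes in 3 genotypes, TMM-scaled CPM) were screened for a library far from the other 4, by Dixon's 95% limit of 0.71 for the gap to the nearest value over the range. The screen marked 8 sets. Chance marks about 1 in 20 sets.

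Knockout 5, the library with kidney markers, was far above the other knockout libraries for Hoxc9 at 2.21 CPM (nearest 1.07), Hoxd4 at 11.7 CPM (nearest 6.49) and Hoxd8 at 17.8 CPM (nearest 10.8). Wildtype 1 stood above its genotype for Hoxc9 at 2.92 CPM (nearest 1.20). C362A 1 stood below for Hoxd11 at 0.0623 CPM (nearest 4.33). Knockout 1 stood above for Hoxd13 at 3.06 CPM (nearest 0.742), knockout 4 above for Hoxc5 at 9.94 CPM (nearest 8.51) and wildtype 4 below for Hoxa6 at 0.883 CPM (nearest 1.10). In the knockout genotype, where knockout 4 and knockout 5 were both near 0 for group 13, the Dixon gap cannot mark either of them.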

How the results depend on the processing

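Over 27 alternatives per comparison (other scaling, DESeq2, limma-voom, other filters, fits on the compared groups, a block for runs of sample numbers, epithelium or mesenchyme level as covariate, and left-out libraries), the number of Hox genes called was 0 in all 3 comparisons. Leaving out each library in turn, it stayed between 0 and 0. The smallest adjusted p of any Hox gene was 0.0847 for C362A against wildtype, against 0.345 with all libraries, and 0.0876 for C362A against knockout, both without C362A 5. The correlation of Hoxa13 with Hoxd13 stayed between 0.77 and 0.82 (Pearson r) and between 0.75 and 0.94 (Spearman rho) over its alternatives. These left out the 2 libraries farthest from the Hoxa13 median, removed genotype means or stayed within runs of sample numbers. The 2 sets of left-out libraries (C362A 1 and knockout 4, or these and knockout 5) were chosen after seeing the data. No paired analysis was possible because the labels carry no replicate numbers. Group 13 genes had at most 372 reads per library, and the standard errors of their log2 fold changes ran from 0.82 to 1.21.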
